A study of Mus musculus with 6 samples.

Results

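The genes described here are 32 genes of the unfolded protein response of the endoplasmic reticulum (ER) and of the connected ATF4 response, in splenic helper T cells of mice in which EAE (experimental autoimmune encephalomyelitis, a model of multiple sclerosis) had been induced. They were taken by symbol from a table of 54532 genes. They fall into an ER chaperone arm of 17 genes, a set of 4 genes for the stress sensors and XBP1, and an ATF4 arm of 11 genes. RNA was sequenced from CD4+ T cells of 3 Ogt-KD mice (genotype Ogtfl/wt CD4-Cre) and 3 control mice (wild type), all C57BL/6 and all at the acute phase of EAE. Ogt encodes the enzyme that attaches O-linked N-acetylglucosamine to nuclear and cytoplasmic proteins. By genotype, 1 allele of it is floxed and 1 is wild type in the Ogt-KD group, and Cre is driven in T cells by Cd4 regulatory sequence. Ogt lies on the X chromosome, and counts from bulk RNA do not show which share of the cells lost it. No Cre or floxed allele is named for the controls, so an effect of Cre and an effect of Ogt cannot be told apart. Of the 32 genes, 31 passed the filter on low counts and Chac1 did not.

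Proteins that enter the secretory pathway fold inside the ER, where chaperones, disulfide isomerases and lectins assist them and a disposal route (ER-associated degradation, ERAD) removes those that fail. When unfolded proteins accumulate, the sensors ATF6, IRE1 and PERK respond. ATF6 and the spliced form of XBP1, which IRE1 produces, raise chaperone and ERAD genes, while PERK phosphorylates eIF2 and thereby raises translation of ATF4, a transcription factor for amino acid supply, redox balance and stress-linked cell death. Other eIF2 kinases reach ATF4 without ER stress, and activated T cells draw on both arms as they grow and begin to secrete cytokines. Gene counts show neither the splicing of Xbp1 nor the translation of Atf4, so both steps are outside these data.

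The promoters of these genes were searched for 4 known elements. Both arms list genes already known from these responses. The shares below therefore describe the lists and are not independent evidence for the division. RefSeq promoters (GRCm38.p6, from 250 bases before to 50 bases after a start site) were found for 29 of the 32 genes, all but Manf, Hyou1 and Atf6. The ER stress response element, CCAAT and CCACG separated by 9 bases of any kind, searched on both strands, is the site through which ATF6 is known to act. It stood in 8 of 15 promoters of the ER chaperone arm (53.3%), in 0 of 3 of the sensor set and in 0 of 11 of the ATF4 arm, against 39 of 32851 promoters overall (0.119%). Below are the 8 promoters' sites, 5′ to 3′ on the strand of the gene, with the CCAAT and CCACG parts, or their complements, in capitals. They are shown because these 8 genes are set against the 7 without the element below.

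Hspa5 (chr2:34772020-34772048, + strand): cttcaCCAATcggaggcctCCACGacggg
Hsp90b1, far site (chr10:86705633-86705661, - strand): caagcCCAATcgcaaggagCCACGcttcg
Hsp90b1, near site (chr10:86705528-86705556, - strand): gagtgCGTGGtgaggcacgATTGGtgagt
Dnajc3 (chr14:118937822-118937850, + strand): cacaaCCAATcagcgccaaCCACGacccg
Pdia6 (chr12:17266486-17266514, + strand): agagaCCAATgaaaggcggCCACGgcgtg
Calr (chr8:84847070-84847098, - strand): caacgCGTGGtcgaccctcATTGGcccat
Canx (chr11:50325795-50325823, - strand): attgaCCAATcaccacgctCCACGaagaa
Creld2 (chr15:88819515-88819543, + strand): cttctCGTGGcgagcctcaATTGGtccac
Syvn1 (chr19:6046527-6046555, + strand): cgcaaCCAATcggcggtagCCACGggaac

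Hsp90b1 was the only 1 of these 8 with 2 matches, at 212 to 194 and at 107 to 89 bases before the start, in opposite orientations. In the other 7 promoters the site began between 44 bases (Syvn1) and 162 bases (Calr) before the start. These distances are from the RefSeq start. The Hspa5 site lies inside the gene as the deposited table bounds it, from chr2:34771970. The stretch upstream of Hsp90b1 (chr10:86705510-86705694, - strand, outside the gene as the deposited table bounds it) is shown because this gene had the smallest p value among the 32 genes.

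Hsp90b1 upstream: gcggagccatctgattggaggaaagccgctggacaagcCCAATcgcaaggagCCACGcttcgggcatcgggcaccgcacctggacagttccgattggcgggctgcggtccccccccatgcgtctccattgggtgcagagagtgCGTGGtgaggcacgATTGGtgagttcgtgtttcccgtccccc

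Herpud1 held instead the related element, ATTGG and CCACG separated by 1 base of any kind, which occurred in 12 of the 32851 promoters (0.0365%) and shares the CCACG letters with the longer element. The sequence TGATGCAA, the core of the site at which ATF4 binds with C/EBP partners, was in 2 of 11 promoters of the ATF4 arm, Chac1 and Slc7a11, and also in Herpud1, against 294 promoters overall (0.895%). The XBP1-type core TGACGTGG was in none of the 29 genes' promoters and in 222 overall (0.676%). A match describes letters in this window only. The sites of Herpud1, Chac1 and Slc7a11, with matched letters in capitals, are shown because they are the only matches to these elements among the 29 promoters.

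Herpud1 (chr8:94386372-94386392, + strand): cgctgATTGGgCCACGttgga
Herpud1, TGATGCAA on the opposite strand (chr8:94386312-94386329): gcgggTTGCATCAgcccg
Chac1, opposite strand (chr2:119351044-119351061): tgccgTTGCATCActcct
Slc7a11, far site (chr3:50443667-50443684, - strand): gtggcTGATGCAAacctg
Slc7a11, near site (chr3:50443648-50443665, opposite strand): agaatTTGCATCAtcatg

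Total counts ran from 18127031 to 25683453 reads per library. Ogt itself was at 599.2, 627.9 and 562.4 CPM (read counts scaled to the normalised library size) in control replicates 1, 2 and 3 and at 661.9, 598.8 and 458.6 CPM in Ogt-KD replicates 1, 2 and 3, groups that overlap (log2 fold change -0.06, SE 0.15, and 0.08 without Ogt-KD replicate 3). Gene counts include exons that a floxed deletion can leave in place. T cell genes were abundant in every library, with 10 of them summing to 4640 to 5030 CPM in control and 4360 to 4830 CPM in Ogt-KD libraries. The labels name 3 mice per group and do not tie libraries to mice, so p values measure the spread between these libraries. No label pairs control and Ogt-KD libraries of the same replicate number. The replicate 3 libraries stood apart: 9 macrophage and monocyte genes summed to 4016 and 3637 CPM in control and Ogt-KD replicate 3, against 837.2 to 1753 CPM in the other 4. In the comparison of all genes, 1 of 16075 genes (0.00622%) passed an adjusted p of 0.05 in edgeR's quasi-likelihood test, and 7.52% had an unadjusted p under 0.05.

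The genes span a wide range of levels. On the authors' FPKM scale, which is per length and allows genes to be compared, the lectin chaperone gene Calr was the most abundant in control cells at 165 ± 4.16 FPKM (SD, n = 3). Hspa5 followed at 141 ± 1.23, Pdia3 at 132 ± 1.08 and Hsp90b1 at 80.6 ± 1.39 FPKM. The neighbours Ppp1r15a (64.4 ± 15.3 FPKM) and Atf4 (63.7 ± 0.769 FPKM) do not differ beyond their spread. Xbp1 stood at 24.0 ± 3.67 FPKM, well above the sensor genes Eif2ak3 (6.28 ± 0.294), Atf6 (4.77 ± 0.824) and Ern1 (3.49 ± 0.428 FPKM). At the low end were the ATF4 arm genes Trib3 (1.81 ± 0.236), Asns (0.851 ± 0.321), Chac1 (0.0462 ± 0.0107) and Slc7a11 (0.0288 ± 0.0206 FPKM). The ATF4 arm thus holds both a highly expressed factor and the 4 lowest genes of the set.

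**Figure D1:**
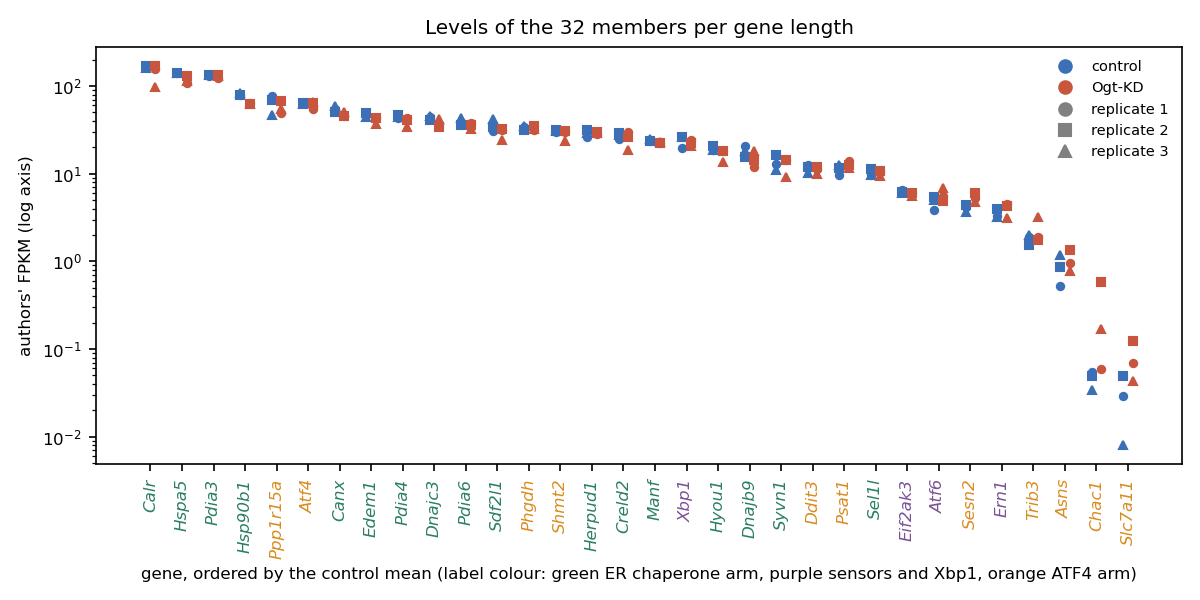
Level of each of the 32 genes on the authors' FPKM scale (log axis), 1 point per library, with genes ordered by their control mean. Calr, Hspa5, Pdia3 and Hsp90b1 lead, and Trib3, Asns, Chac1 and Slc7a11 are the lowest.

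Among the major ER chaperones, Hsp90b1 and Hspa5 had all 3 Ogt-KD values below all 3 controls, and neither passed the adjusted p in edgeR. Hsp90b1 (chr10:86690209-86705509) encodes GRP94, the ER's Hsp90, which folds integrins and Toll-like receptors. It was at 327.0, 320.0 and 332.7 CPM in the controls and at 263.6, 256.6 and 250.1 CPM in the Ogt-KD libraries. All 3 Ogt-KD values lay below all 3 controls with a gap far wider than the spread within either group. Its log2 ratio was -0.35 (SE 0.08, 95% interval -0.54 to -0.15, adjusted p = 0.512 over all genes in edgeR). Hsp90b1 did not pass in edgeR, and it passed in DESeq2 (adjusted p = 0.0115), where 0.784% of genes did. Over 13 alternative analyses its log2 fold change stayed between -0.36 and -0.32, with adjusted p values from 0.0115 to 1. Its exons share 415 bases with the pseudogene 1810014B01Rik on the other strand, which had 645 reads over the 6 libraries against 37716 for Hsp90b1. On the same strand they share 84 bases with Gm15344 (373 reads) and 133 bases with Gm25745 (0 reads).

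Hspa5 (chr2:34771970-34777547) encodes BiP, the ER's Hsp70, which also holds the sensors inactive. It was at 609.5, 597.8 and 593.9 CPM in the controls and at 467.8, 550.4 and 479.8 CPM in the Ogt-KD libraries. The controls were nearly alike, and all 3 Ogt-KD libraries were below them with Ogt-KD replicate 2 the closest. Its log2 ratio was -0.27 (SE 0.10, 95% interval -0.51 to -0.02, adjusted p = 0.628 in edgeR), which does not pass. Hyou1 encodes an ER chaperone that also serves as an exchange factor for BiP. It was at 136.7, 148.8 and 134.3 CPM in the controls and at 134.5, 131.3 and 99.50 CPM in the Ogt-KD libraries, so only Ogt-KD replicate 3 was clearly below the rest (log2 fold change -0.20, SE 0.13). Sdf2l1, a partner of BiP, had -0.27 (SE 0.17), and its Ogt-KD replicate 3 was again the lowest library at 26.93 CPM.

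The J-domain partners of BiP showed another pattern. Dnajc3 encodes p58IPK, which presents clients to BiP. It was at 229.5, 210.2 and 237.8 CPM in the controls and at 190.3, 178.8 and 219.2 CPM in the Ogt-KD libraries. The groups overlap through Ogt-KD replicate 3, and each Ogt-KD library was below the control of the same number (log2 fold change -0.20, SE 0.11, edgeR adjusted p = 0.728). Dnajb9 encodes ERdj4, a J-domain protein that restrains IRE1. It was at 53.48, 39.47 and 46.75 CPM against 30.91, 36.50 and 46.43 CPM, a log2 fold change of -0.29 (SE 0.18) that was -0.47 without Ogt-KD replicate 3. For these genes, unlike Hyou1 and Sdf2l1, replicate 3 was the Ogt-KD library nearest to the controls.

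Calreticulin and calnexin hold newly made glycoproteins during folding. Canx was at 260.2, 233.8 and 277.5 CPM in the controls and at 215.7, 213.5 and 236.6 CPM in the Ogt-KD libraries, a log2 ratio of -0.21 (SE 0.10, adjusted p = 0.682 in edgeR). The groups overlap only in that the highest Ogt-KD library lay above the lowest control. Calr was at 477.8, 486.6 and 466.6 CPM against 461.3, 493.5 and 281.8 CPM. Its log2 fold change of -0.21 (SE 0.20) rests on Ogt-KD replicate 3 and was -0.001 without that library. The disulfide isomerase genes differed little: Pdia3, the isomerase that works with calreticulin, stood at -0.03 on the log2 scale (SE 0.09, 95% interval -0.24 to 0.18), Pdia4 -0.16 (SE 0.11) and Pdia6 -0.14 (SE 0.11). Pdia3 was nearly constant in control cells, at 415.3, 415.2 and 416.0 CPM.

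**Figure D2:**
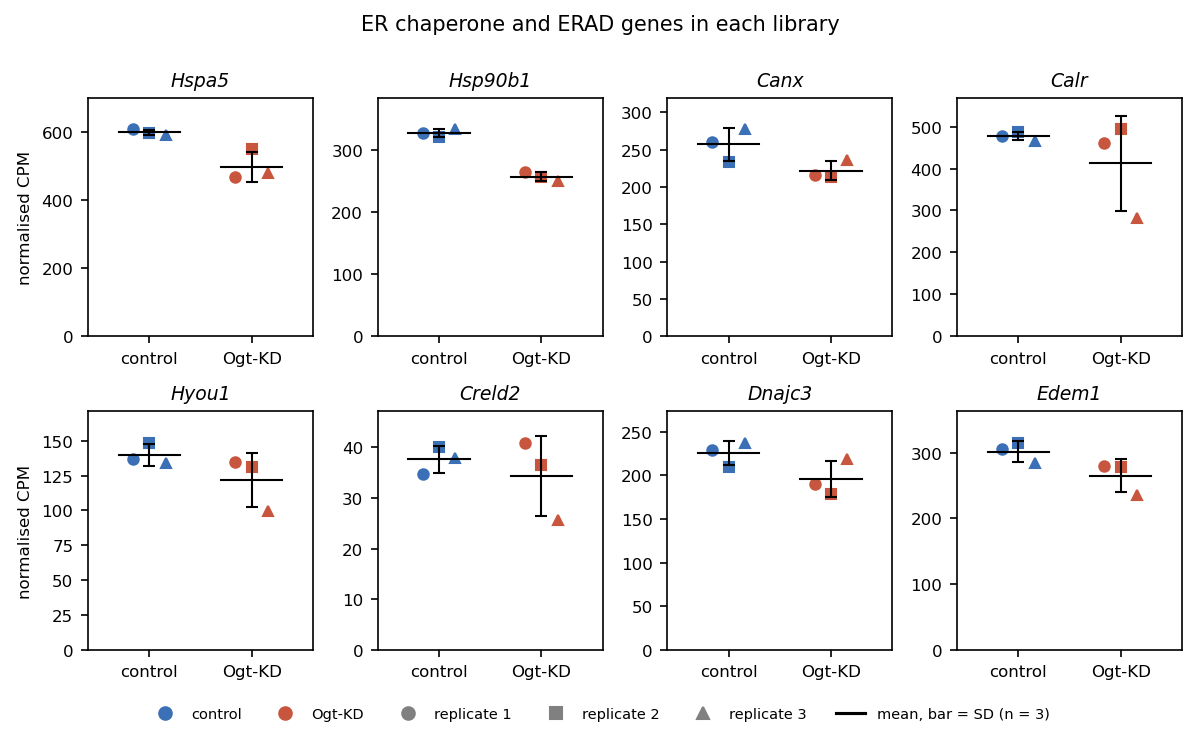
Normalised CPM of 8 genes of the ER chaperone arm in each library (axes start at 0), with the mean and SD of n = 3 libraries per group. Hspa5, Hsp90b1 and Edem1 show no overlap between groups, while Calr, Hyou1 and Creld2 are low in Ogt-KD replicate 3 alone.

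The remaining genes of the arm encode secreted or disposal factors. Manf, a secreted ER stress factor that binds BiP, was at 84.95, 83.85 and 87.36 CPM in the controls and at 78.96, 79.94 and 81.44 CPM in the Ogt-KD libraries. The groups did not overlap, yet the log2 fold change was -0.09 (SE 0.07, edgeR adjusted p = 0.869). Manf exons share 146 bases with Dcaf1 and 166 with 4930524O07Rik, both on the other strand. They also share 14 bases with Rbm15b on the same strand, which had 11063 reads over the 6 libraries against 10720 for Manf. Edem1, a lectin that hands misfolded glycoproteins to ERAD, was at 305.2, 315.6 and 284.4 CPM against 280.3, 278.6 and 236.1 CPM, also without overlap (log2 fold change -0.19, SE 0.10, edgeR adjusted p = 0.748). Creld2 had -0.13 (SE 0.18), with 25.57 CPM in Ogt-KD replicate 3 and 34.76 to 40.95 CPM in the other 5 libraries. Sel1l and Syvn1 encode the adaptor and the ubiquitin ligase of the main ERAD complex. Their log2 fold changes were -0.01 (SE 0.10, 95% interval -0.24 to 0.23) and -0.08 (SE 0.21, 95% interval -0.59 to 0.42). Herpud1, an ERAD scaffold and the gene with the related promoter element, was the only gene of the arm above 0, at 0.03 (SE 0.09).

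As a group, 16 of the 17 genes of the ER chaperone arm lay below 0 (94.1%, against 51% of all genes tested), with a median log2 fold change of -0.19 against -0.005 for all genes tested. None passed the adjusted p in edgeR, either without or with a block for replicate number (which called 0.292% of all genes), and 2 had an unadjusted p under 0.05 and a lower level, Hspa5 and Hsp90b1 (11.8%, against 2.48% of all genes tested that were lower). The groups did not overlap for 4 genes, all lower in Ogt-KD (23.5%, against 5.88% of all genes tested). With the block, 5 had an unadjusted p under 0.05, all lower (against 5.63% of all genes), as Dnajc3, Canx and Edem1 joined the pair. Ogt-KD replicate 3 was the lowest library for 10 of the 17 genes (58.8%), against 25.3% of all genes tested. Without it 13 of the 17 genes remained below 0 and the median was -0.08. The other ER genes described below had a nearby median without that library, and the median of all genes is not given for it. In that comparison 8 of the 31 genes had an unadjusted p under 0.05, 5 of them in this arm, against 18.4% of all genes tested. The 8 genes with the ER stress response element all lay below 0, from -0.35 to -0.08, with a median of -0.21. The 7 genes of the arm whose promoters lacked it ran from -0.29 to 0.03, with a median of -0.16, so these ranges overlap. The value of 0.03 is that of Herpud1, which holds the related element. Among tested genes outside the set, 11 carried the element, 6 of them lay below 0 and their median was -0.32.

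**Figure D3:**
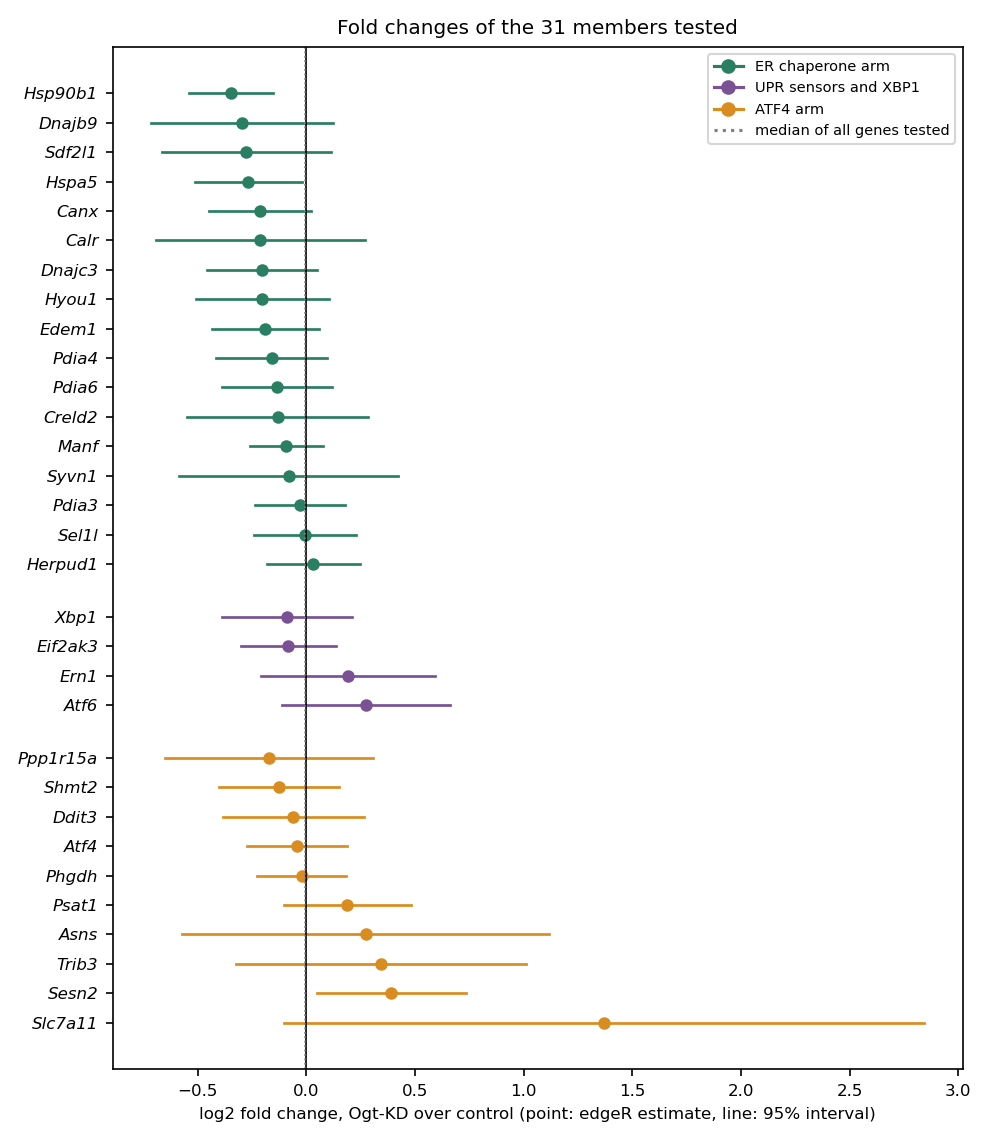
Fold change on the log2 scale (Ogt-KD relative to control) for the 31 genes tested, with 95% intervals from edgeR, grouped by arm and ordered by value. Of the ER chaperone arm, 16 of 17 points lie left of 0, while 5 of 10 points of the ATF4 arm do.

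Of the 4 genes for the stress sensors and XBP1, 2 lay above 0 and 2 below. Atf6 was at 35.99, 49.94 and 46.75 CPM in the controls and at 52.02, 45.83 and 62.82 CPM in the Ogt-KD libraries, a log2 ratio of 0.28 (SE 0.16, adjusted p = 0.777 in edgeR). Control replicate 1 was the lowest library and Ogt-KD replicate 3 the highest, with the other 4 close together. Ern1, which encodes IRE1, was at 27.13, 32.46 and 26.36 CPM against 37.47, 35.54 and 25.33 CPM, a log2 fold change of 0.19 (SE 0.17) that was 0.35 without Ogt-KD replicate 3. Eif2ak3, which encodes PERK, stood between 36.39 and 40.28 CPM in the controls and between 33.85 and 37.11 CPM in the Ogt-KD libraries (log2 fold change -0.08, SE 0.09, 95% interval -0.30 to 0.14). Xbp1 was at 65.17, 84.69 and 85.28 CPM against 79.31, 73.61 and 68.17 CPM (log2 fold change -0.09, SE 0.13, 95% interval -0.39 to 0.21). Control replicate 1 thus had the lowest Xbp1, and it had the highest Hspa5 and Dnajb9 of the 6 libraries.

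In the ATF4 arm the transcription factors themselves did not differ by more than the spread. Atf4 was at 153.5, 150.8 and 148.8 CPM in the controls and at 129.4, 154.3 and 156.0 CPM in the Ogt-KD libraries, with Ogt-KD replicate 1 alone below the rest (log2 fold change -0.04, SE 0.10, 95% interval -0.27 to 0.19). Ddit3 encodes CHOP, a factor of stress-linked cell death. It was at 21.92, 20.14 and 17.46 CPM against 19.64, 20.68 and 16.86 CPM (log2 fold change -0.06, SE 0.14, 95% interval -0.38 to 0.27). Its symbol has 2 rows in the table. The row used here shares 68 exon bases with Mars on the other strand, and the second was at 0 reads throughout, a count that allows up to 3 in a library. Ppp1r15a encodes GADD34, which brings the phosphatase to eIF2 and so ends the response. It was at 227.6, 203.7 and 139.2 CPM against 146.5, 201.1 and 159.1 CPM, values that vary within the groups as much as between them (log2 fold change -0.17, SE 0.20).

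Apart from Psat1, the targets with values above 0 were genes of low abundance. Sesn2 (chr4:132492032-132510501) encodes Sestrin 2, a leucine-binding inhibitor of mTORC1. It was at 14.57, 15.38 and 12.73 CPM in the controls and at 18.37, 21.29 and 16.42 CPM in the Ogt-KD libraries. All 3 Ogt-KD libraries were above all controls, as they were for 7.43% of all genes tested. Its log2 ratio was 0.39 (SE 0.15, 95% interval 0.05 to 0.74, adjusted p = 0.624 in edgeR), which does not pass. Slc7a11 encodes the cystine importer xCT. It had 9, 17 and 2 reads in the controls and 20, 34 and 15 reads in the Ogt-KD libraries, a log2 ratio of 1.37 (SE 0.62) with a wide 95% interval, -0.10 to 2.84 (edgeR adjusted p = 0.672). Ogt-KD replicate 3 (0.5994 CPM) lay below control replicate 2 (0.6846 CPM), so the groups overlap. Chac1, which degrades glutathione, had 2, 2 and 1 reads in the controls and 2, 19 and 7 in the Ogt-KD libraries, too few for the filter. In the authors' deposited table it has a log2 fold change of 2.53 and an adjusted p of 1. Most of its reads came from Ogt-KD replicate 2, the library that was also highest for Slc7a11, Sesn2 and Asns.

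Trib3, a pseudokinase that restrains ATF4 output, was at 4.110, 3.262 and 4.225 CPM against 4.115, 3.751 and 6.793 CPM. Its log2 fold change of 0.34 (SE 0.28) was 0.03 without Ogt-KD replicate 3. Asns, asparagine synthetase, was at 1.461, 2.336 and 3.211 CPM against 2.645, 3.701 and 2.118 CPM (0.27, SE 0.36), with both the lowest and the second highest value in control cells. The serine and glycine enzymes were more abundant and differed little. Psat1 had a log2 fold change of 0.19 (SE 0.12), Phgdh -0.02 (SE 0.09, 95% interval -0.23 to 0.19) and Shmt2, the mitochondrial enzyme that yields glycine, -0.12 (SE 0.12). Shmt2 was lower in Ogt-KD replicate 3 alone, at 73.53 CPM against 94.54 to 98.87 CPM elsewhere.

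**Figure D4:**
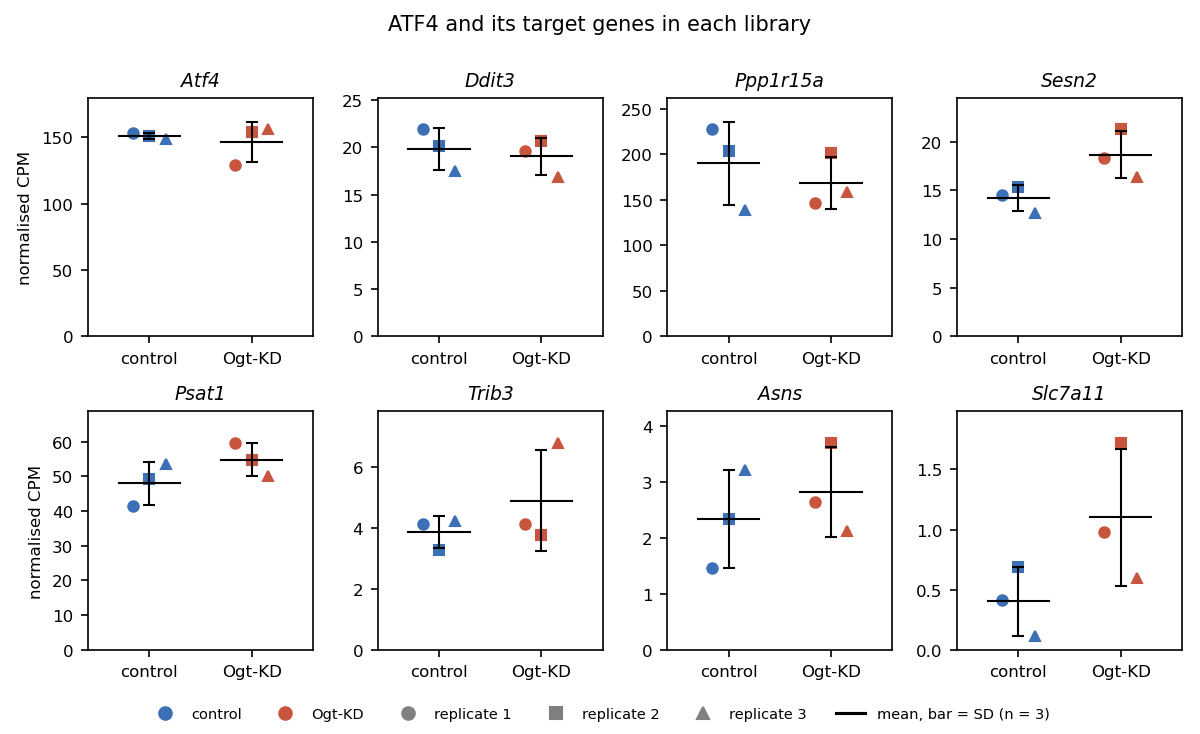
Normalised CPM of 8 genes of the ATF4 arm in each library (axes start at 0), with the mean and SD of n = 3 libraries per group. Sesn2 shows no overlap between groups, Trib3 is high in Ogt-KD replicate 3 alone, and Atf4 and Ddit3 overlap.

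Of the 10 tested genes of the ATF4 arm, 5 lay above 0 and 5 below, with a median log2 fold change of 0.08. None passed the adjusted p in edgeR without or with the block, and 1, Sesn2, had an unadjusted p under 0.05 and a higher level (10%, against 5.04% of all genes tested that were higher). With the block, 2 of the 10 had an unadjusted p under 0.05, Sesn2 and Slc7a11, both higher. Of all genes tested, 13.2% did with the block, in either direction. The median was -0.02 when Ogt-KD replicate 2 was left out and 0.02 when either control replicate 1 or Ogt-KD replicate 3 was, so it has no steady sign. Leaving out Ogt-KD replicate 1 or 3 left 3 of the 10 genes below 0. Side by side, the arms had medians of -0.19 over 17 genes and 0.08 over 10, and 94.1% and 50% of their genes lay below 0. The difference between the arms was not tested, since the genes were chosen with results of these data known. In each library the median deviation of the ER chaperone arm from the genes' means over the 6 libraries was 0.07, 0.13 and 0.09 in the controls and -0.01, 0.01 and -0.19 in the Ogt-KD libraries, in log2 units. For the ATF4 arm it was -0.01, -0.02 and -0.004 in the controls and 0.03, 0.10 and -0.05 in the Ogt-KD libraries. The 3 controls lay above all 3 Ogt-KD libraries for the ER chaperone arm, and the groups overlapped for the ATF4 arm.

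**Figure D5:**
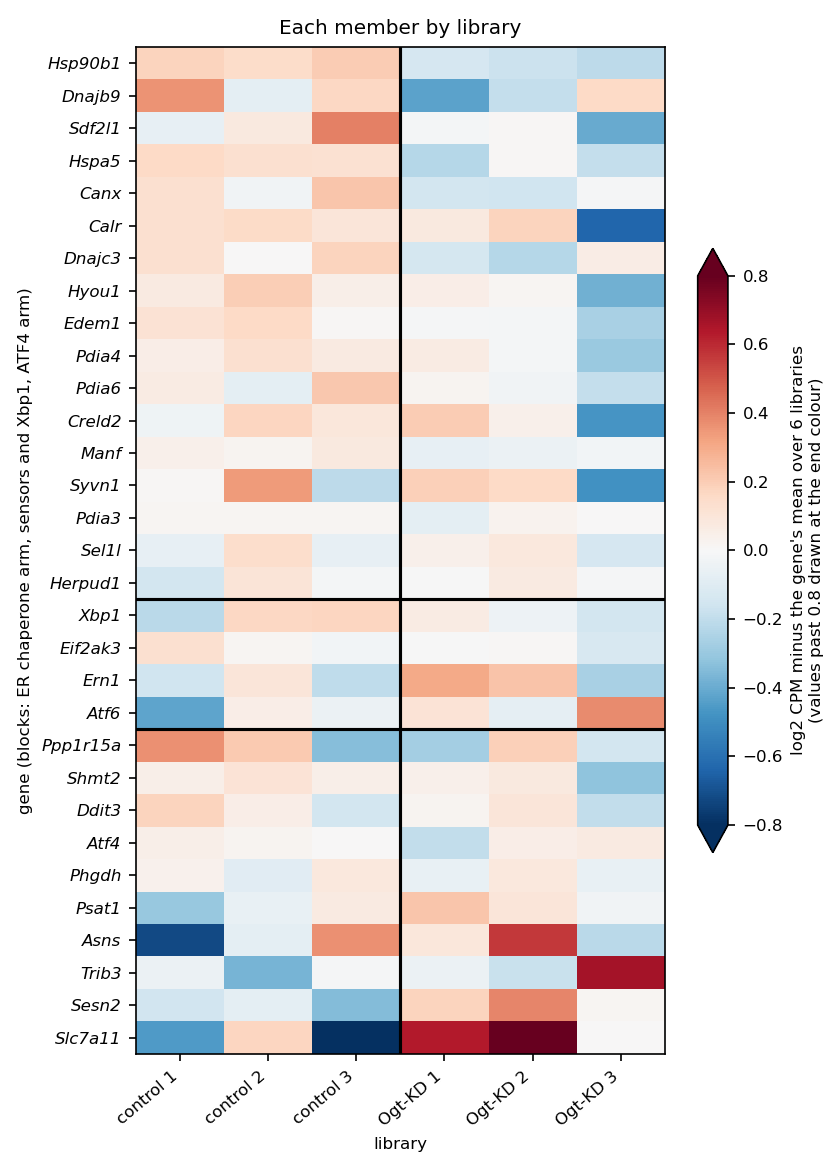
Log2 CPM of each tested gene minus its mean over the 6 libraries, with genes in rows by arm and libraries in columns. The ER chaperone arm is mostly above its mean in control columns and lowest in Ogt-KD replicate 3 for 10 of 17 genes, with no such order in the ATF4 arm.

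The chaperones are part of a larger set of ER genes. Of 51 other tested genes for translocation, signal cleavage, folding, glycan trimming and ERAD, 24 lay above 0 and 27 below, with a median log2 fold change of -0.004. Without Ogt-KD replicate 3 that median was -0.07, beside -0.08 for the ER chaperone arm, and the difference between the lists was not tested. None had an unadjusted p under 0.05, against 7.52% of all genes tested, and 1 had with the replicate block, against 13.2%. Without Ogt-KD replicate 3 there were 5, and without replicate 3 of both groups also 5, where 18.4% and 16.1% of all genes were called. The smallest p values belonged to Ssr1 (log2 fold change 0.15, SE 0.07), a subunit of the translocon-associated complex, and Sec11c (0.20, SE 0.11), a signal peptidase subunit. Ssr1 was at 98.37, 99.19 and 99.14 CPM in the controls and at 109.6, 106.1 and 113.8 CPM in the Ogt-KD libraries, without overlap and in the direction opposite to Hsp90b1. Of the 51 genes, 4 were higher without overlap (7.84%, against 7.43% of all genes tested) and 0 were lower without overlap (against 5.88%). On the lower side the smallest p values were those of Mogs (-0.11), a glucosidase, Erp44 (-0.15), a retention chaperone, and Sec62 (-0.11), a translocation factor.

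Other ATF4 and amino acid response genes were likewise divided, with 19 of 33 tested genes above 0, 14 below and a median of 0.02. None had an unadjusted p under 0.05 in edgeR (against 7.52% of all genes tested), and 3 had with the replicate block (against 13.2%). There were 8 without Ogt-KD replicate 3 (against 18.4%) and 7 without replicate 3 of both groups (against 16.1%). The 3 with the block were Cebpb and Ddit4, both lower, and Atf3, higher. Cebpb, a partner of ATF4, was at 24.21, 46.72 and 53.57 CPM in the controls and at 17.68, 26.97 and 37.32 CPM in the Ogt-KD libraries. Each Ogt-KD library was below the control of the same number although the groups overlap (log2 fold change -0.60, SE 0.35, edgeR adjusted p = 0.777, and adjusted p = 0.0773 with the block). Ddit4, an inhibitor of mTORC1 that also responds to glucocorticoids, showed the same order at 371.1, 505.5 and 726.0 CPM against 314.7, 254.2 and 570.8 CPM (-0.49, SE 0.35). Atf3, a stress-induced transcription factor named after its values were seen, was at 5.846, 9.625 and 2.197 CPM against 9.650, 19.11 and 3.317 CPM. It was higher than the control of the same number in each Ogt-KD library, and the groups overlap (0.84, SE 0.70, adjusted p = 0.109 with the block in edgeR). Slc1a5, a glutamine carrier, had -0.18 (SE 0.13). Slc7a5, the large neutral amino acid carrier, was at 42.29, 44.58 and 42.13 CPM against 56.28, 53.68 and 41.96 CPM (0.24, SE 0.12), higher in 2 of 3 Ogt-KD libraries. The 12 tRNA synthetase genes of this list, classic ATF4 targets, had 8 above 0 and 4 below, with a median of 0.03. The largest among them was Wars at 0.22 (SE 0.14), and Gars, at 0.12 (SE 0.07), did not overlap between groups. Of the 12 genes, 2 were higher without overlap (16.7%, against 7.43% of all genes tested).

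For the eIF2 kinases and their targets, 7 of 13 genes lay above 0 and 6 below, with a median of 0.005, and none had an unadjusted p under 0.05 in edgeR. Without Ogt-KD replicate 3 there were 2, where 18.4% of all genes were called. Eif2ak1, the heme-regulated kinase, was at 52.84, 49.94 and 51.82 CPM against 59.57, 58.81 and 55.86 CPM, without overlap (log2 fold change 0.17, SE 0.08, edgeR adjusted p = 0.670). Eif2b5, the catalytic subunit of the exchange factor eIF2B, was at 52.25, 53.00 and 51.99 CPM against 46.00, 48.97 and 46.83 CPM, without overlap in the other direction (-0.15, SE 0.08, edgeR adjusted p = 0.720). Of the 13 genes, 2 were higher without overlap (15.4%, against 7.43% of all genes tested) and 1 was lower (7.69%, against 5.88%). Eif2ak4, the amino acid sensing kinase GCN2, had 0.16 (SE 0.12). None of these passed an adjusted p.

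Cell types other than T cells contributed RNA, and their levels are given beside these results. In bulk samples, fewer cells of a type and less RNA per cell cannot be told apart. Plasma cells, which secrete antibody and carry high ER chaperone levels, had 11 marker genes that summed to 396.1, 1554 and 1636 CPM in the controls and to 1331, 668.8 and 1083 CPM in the Ogt-KD libraries. None of these markers was at 0 over the 6 libraries, and 7 of the 10 tested lay below 0. Control replicate 1, with the lowest plasma cell sum, was at 609.5 CPM for Hspa5 and 327.0 CPM for Hsp90b1. Dendritic cell markers, 11 of 11 above 0, ran from 570 to 1210 CPM in the controls and from 1040 to 2810 CPM in the Ogt-KD libraries. Macrophage and monocyte genes, 8 of 9 below 0, ran from 1730 to 4020 CPM and from 837 to 3640 CPM. Erythroid genes, 9 of 10 above 0, summed to 23.5 to 61.5 CPM in the controls and to 47.32, 65.24 and 222 CPM in Ogt-KD replicates 1, 2 and 3, so they were highest in the library where the ER chaperone arm was lowest.

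The remaining marker sums were smaller or similar. B cell markers, 8 of 8 above 0, summed to 99 to 140 CPM and 132 to 174 CPM, neutrophil markers (8 of 8 above 0) to 110 to 219 CPM and 127 to 300 CPM, and CD8 and NK markers (3 of 5 above 0) to 31.8 to 36.6 CPM and 33.8 to 46.2 CPM. Cell cycle genes, 22 of 22 above 0, summed to 1060 to 1420 CPM in the controls and to 1550 to 2060 CPM in the Ogt-KD libraries, without overlap. Activation genes, 12 of 14 above 0, summed to 1110 to 1430 CPM and 1410 to 1620 CPM. The part of these cells and states in the lower chaperone levels was not tested. Without replicate 3 of both groups, the log2 fold changes of Hsp90b1 and Hspa5 were -0.32 and -0.25 and the median of the ER chaperone arm was -0.07. The 4 libraries left in that comparison still differ in macrophage and monocyte genes, at 1733 and 1753 CPM in the controls and 837.2 and 926.7 CPM in the Ogt-KD libraries.

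In the authors' deposited table Hsp90b1 has a log2 fold change of -0.35 with an adjusted p of 0.0672, the smallest of the 32 genes, and Hspa5 one of -0.27 with 0.522. None of the 32 genes is under 0.05 in the authors' deposited table, where 110 of 26365 genes with an adjusted p are. These values come from the same 6 libraries.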

How the data were processed

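Bowtie2 2.0.6, TopHat2 2.0.9 and mm9 are named in the submitters' processing notes. No source used here states the counting tool or its strand setting. The authors deposited 1 table with read counts and FPKM per gene and library. It also holds the authors' mean normalised signal per group (not used), and the authors' log2 fold change, p-value and adjusted p-value. The deposited gene length was not used. All 32 genes have the coordinates of GENCODE M21 (GRCm38), so positions are on GRCm38, not mm9. Exons of 11 of them share bases with another gene.

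Counts were tested with edgeR 4.0.16 (R 4.3.3): quasi-likelihood F test, TMM, filterByExpr, Benjamini-Hochberg adjustment over 16075 genes, threshold 0.05. CPM values are TMM-scaled, and deviations use log2 CPM with a prior count of 2. Alternatives used DESeq2 1.42.0, limma 3.58.1 (voom), other scalings, no filter, a replicate block and left-out libraries. The scripts were tested on simulated data. No pair of libraries was a copy (chi-squared per degree of freedom 9.27 or more). Deviations of same-numbered libraries correlated at 0.109, 0.346 and 0.523 for replicates 1, 2 and 3, so the block was run beside the main test. Libraries with different numbers ran from -0.418 to 0.267. The value of 0.267, for control replicate 2 with Ogt-KD replicate 1, is above that of the replicate 1 pair. The pairing comes from the data and not from the labels. For Ddit3, the row with reads was used. Genes named are the 32 members, Ogt and, in each wider list, genes among the 6 lowest p values on the higher and on the lower side. Some genes whose exons share bases with a member are named for that overlap. Atf3 was added after its values were seen. Members and lists were chosen with earlier results of these data known.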

Additional observations from a re-analysis of the deposited data

How the results depend on the processing

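The ER chaperone arm kept a median below 0 in all 13 alternatives, and its members did not pass an adjusted p in any edgeR or limma-voom run. Genes with an adjusted p under 0.05 numbered 126 with DESeq2, 4 without a filter on low counts, 47 with the replicate block and 35 without replicate 3 of both groups (1 to 2 when single libraries were left out), against 1 in the main test. Of the 32 genes, 1 passed with DESeq2, Hsp90b1 (log2 fold change -0.35). The number at an unadjusted p under 0.05 was 3 in the main test, 5 without a filter, 7 with the replicate block, 6 without replicate 3 of both groups and 1 to 8 when single libraries were left out. The share over all genes rose too. It was 7.52% in the main test, 13.2% with the replicate block, 16.1% without replicate 3 of both groups and 18.4% without Ogt-KD replicate 3. For the other runs that share is not given here. The block changed no call among the 32 genes at an adjusted p. The median of the ER chaperone arm ran from -0.193 to -0.0776 when single libraries were left out, nearest 0 without Ogt-KD replicate 3, and was -0.0677 without replicate 3 of both groups. The median of the ATF4 arm was 0.17 without a filter, which admits Chac1, and ran from -0.0210 (without Ogt-KD replicate 2) to 0.13 when single libraries were left out. Of 403 values for single genes under the alternatives, 385 kept direction and side of the threshold and 17, in 9 genes near 0, turned sign. These were Sel1l with upper-quartile scaling (0.00278) and, without replicate 3 of both groups, Creld2 (0.0474), Sel1l (0.0190), Xbp1 (0.0265) and Phgdh (0.0404). With single libraries left out the ranges were -0.0287 to 0.10 for Herpud1, -0.16 to 0.0199 for Ddit3, -0.0630 to 0.0664 for Sel1l, -0.22 to 0.11 for Syvn1, -0.0520 to 0.00380 for Pdia3, -0.0921 to 0.0420 for Atf4, -0.0706 to 0.00578 for Phgdh and -0.28 to 0.0410 for Creld2. The cause of these changes was not tested. Depth limits Slc7a11, Chac1, Asns and Trib3, whose counts are low.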
